A study of Rattus norvegicus with 6 samples.

Results

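Antigen presentation by the major histocompatibility complex (MHC) was examined in blood vessel endothelial cells of rat skin through 10 genes, taken by symbol from the platform annotation. Of these, 9 had a probeset with that symbol and were measured, among 15037 named genes in all, and all 9 passed the filter on dim genes that left 11515 genes for testing. They were 5 class I genes (B2m, Tap1, Tap2, Tapbp and RT1-A1) and 4 class II genes (Cd74, Ciita, RT1-Da and RT1-Ba). Nlrc5, the sixth class I gene of the list, is not analysed here because no probeset in the annotation used carries its symbol.

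The arrays came from 3 Il33 knockout rats (27, 28 and 52) and 3 wildtype rats (34, 45 and 37), all Sprague-Dawley, with rats 52 and 37 the males of their groups and the others females. Abdominal skin had been digested with collagenase I and DNase I, and the suspension was depleted on magnetic columns of CD45-positive leukocytes and then of Lyve-1-positive lymphatic endothelium before CD31-positive cells were retained. Neither the ages of the animals nor the way the Il33 allele was made is given in the sources used here. Each array held RNA of a different animal, so the spread within a group is a spread between animals.

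MHC class I molecules sit on nearly every nucleated cell and show peptides from the cell's own cytosol to CD8 T cells. MHC class II molecules show peptides from endosomes to CD4 T cells and are made constitutively mainly by dendritic cells, macrophages, B cells and thymic epithelium. Endothelial cells carry class I at rest, and interferon-gamma can induce class II in them through the transactivator Ciita. The comparison of genotypes asks whether animals without Il33, which encodes an alarmin stored in nuclei, showed a difference in either arm of antigen presentation.

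Promoter sequences are shown for 6 of the genes because class I and class II genes are known to be switched on through different promoter elements. Of the 10 genes, 8 had an entry in the RefSeq promoter table of build GRCr8, and the 200 bases before the annotated start are printed for 4 class I and 2 class II genes. In the class I promoters the capitals mark GAAA, any 2 bases and GAAA, the core of an interferon-stimulated response element, and GGGA, any base, T, any 2 bases and CC, letters like those of an NF-kB site, on either strand. In the class II promoters they mark nothing but GCAAC and ATTGG with 28 bases between them, letters from the X box and the Y box that the Ciita-dependent enhanceosome occupies.
B2m, chr3:129549130-129549329, plus strand: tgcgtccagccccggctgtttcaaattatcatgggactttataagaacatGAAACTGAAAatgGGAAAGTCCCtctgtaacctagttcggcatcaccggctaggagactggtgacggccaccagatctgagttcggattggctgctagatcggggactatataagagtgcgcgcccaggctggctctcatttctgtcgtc
Tap1, chr20:4668544-4668743, minus strand: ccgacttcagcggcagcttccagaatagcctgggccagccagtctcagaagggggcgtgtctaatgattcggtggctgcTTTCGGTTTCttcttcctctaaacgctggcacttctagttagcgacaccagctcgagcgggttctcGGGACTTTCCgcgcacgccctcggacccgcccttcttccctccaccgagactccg
Tap2, chr20:4652297-4652496, minus strand: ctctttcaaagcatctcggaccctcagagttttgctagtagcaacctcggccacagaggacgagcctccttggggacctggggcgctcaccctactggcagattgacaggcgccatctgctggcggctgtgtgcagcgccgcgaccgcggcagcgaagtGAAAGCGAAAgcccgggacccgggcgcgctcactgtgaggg
Tapbp, chr20:4967878-4968077, minus strand: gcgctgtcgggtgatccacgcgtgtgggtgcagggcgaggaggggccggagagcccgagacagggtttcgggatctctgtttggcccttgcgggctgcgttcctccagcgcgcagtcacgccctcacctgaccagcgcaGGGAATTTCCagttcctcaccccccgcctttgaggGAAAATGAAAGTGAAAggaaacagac
RT1-Da, chr20:4515215-4515414, plus strand: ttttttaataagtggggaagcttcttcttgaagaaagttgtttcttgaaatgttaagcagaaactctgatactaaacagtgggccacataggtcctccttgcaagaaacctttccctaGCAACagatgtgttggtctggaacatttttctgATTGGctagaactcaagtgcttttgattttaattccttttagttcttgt
RT1-Ba, chr20:4576857-4577056, plus strand: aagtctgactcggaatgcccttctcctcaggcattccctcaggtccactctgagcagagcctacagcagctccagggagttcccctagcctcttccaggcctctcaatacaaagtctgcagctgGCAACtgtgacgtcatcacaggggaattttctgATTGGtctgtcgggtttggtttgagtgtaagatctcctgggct

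In windows of 300 bases, 250 before the start and 50 after it, the interferon letters were found on either strand in 4 of the 5 class I promoters and in 0 of the 3 class II promoters with an entry, against 3.92% of all 33469 promoters in the table. In Tapbp 2 such matches overlapped, at -26 to -17 and at -20 to -11 from the start. The NF-kB-like letters were found in B2m, Tap1, Tapbp and RT1-A1 and also in Cd74 and RT1-Ba, against 3.91% of all promoters. ATTGG alone stood in all 3 class II promoters and in B2m and RT1-A1, but it is short, and 37.5% of all promoters hold it on 1 strand or the other. The spaced pair of GCAAC and ATTGG stood in RT1-Da and RT1-Ba, from whose sequences the spacing was read, and in 0.0508% of all promoters, which is 17 of them. Among these 17 were RT1-DOa and RT1-Ha, other class II alpha-chain genes that had not been used to set the spacing. The letters were chosen after the sequences were seen, a match is a description and not a binding site, and Sprague-Dawley alleles may differ from this assembly.

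**Figure D1:**
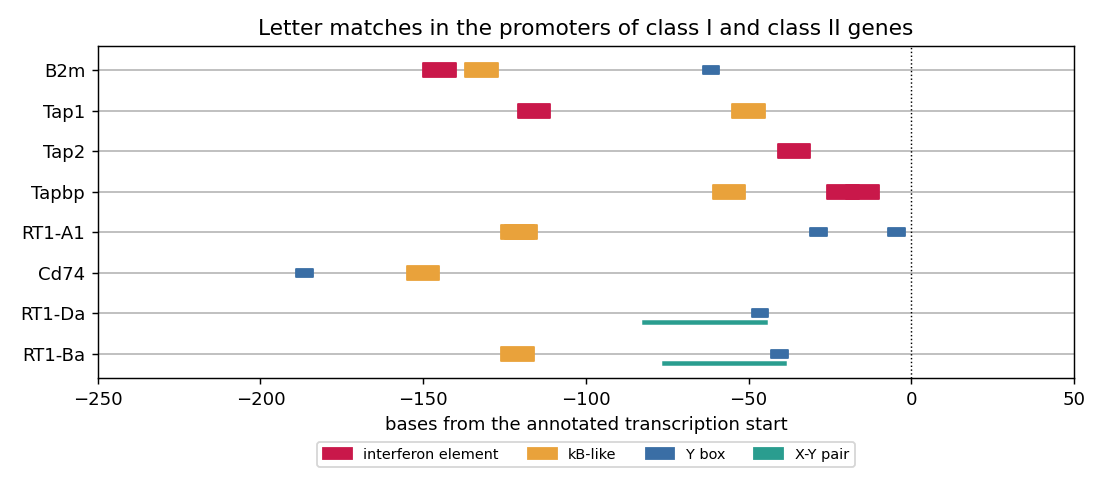
Positions of 4 letter patterns in the promoters of 8 genes, as bases from the annotated transcription start on the x axis, with a row for each gene. The interferon letters appear in B2m, Tap1, Tap2 and Tapbp, and the spaced X-Y pair (green line under the row) in RT1-Da from -82 to -45 and in RT1-Ba from -76 to -39.

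Blood endothelial markers had high signal in every array. The mean of 11 such markers was 15.31 to 15.55 on the log2 scale in the knockout arrays and 15.05 to 15.40 in the wildtype arrays, and Plvap and Cdh5 lay near the highest value an array gave (19.70 to 19.93). Il33 read 8.37, 8.07 and 9.82 in knockout rats 27, 28 and 52 and 13.86, 16.32 and 16.60 in wildtype rats 34, 45 and 37, a difference of -6.84 (limma adjusted p = 0.0439). Where the deletion lies relative to the Il33 probes is not given. The mean of 8 bacterial and phage transcripts added during preparation was high in knockout 28, wildtype 34 and wildtype 45 (10.12 to 10.42) and low in knockout 27, knockout 52 and wildtype 37 (8.82 to 9.33). A comparison of genotypes within high signal thus has knockout 28 as its only knockout. Within low signal the only wildtype is the male 37, set against female 27 and male 52, so sex is not balanced there. Keratinocyte marker signal also varied widely between arrays of these sorted cells and is given with the class II genes.

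None of the 9 antigen presentation genes differed between knockout and wildtype beyond the spread between animals. In limma, 0 of 9 passed at an adjusted p of 0.05 over all genes, against 0.00868% of the 11515 genes tested, which is Il33 alone. At an unadjusted p under 0.05 there were 0 of 9 members too, against 1.97% of all genes, and the knockout and wildtype values overlapped for every member, against 6.25% of all genes whose groups did not overlap. The adjusted p was 0.999 for each member. In simulated data only 2.6% of log2 differences of 1 were called, so 0 of 9 does not show that the genotypes were alike. Among the class I genes B2m, RT1-A1 and Tap1 spanned 0.23 to 0.85 over the 6 arrays, and Tapbp and Tap2 spanned 1.70 and 1.99. Cd74, RT1-Da and RT1-Ba spanned 1.82 to 3.70, and were lowest in the males.

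**Figure D2:**
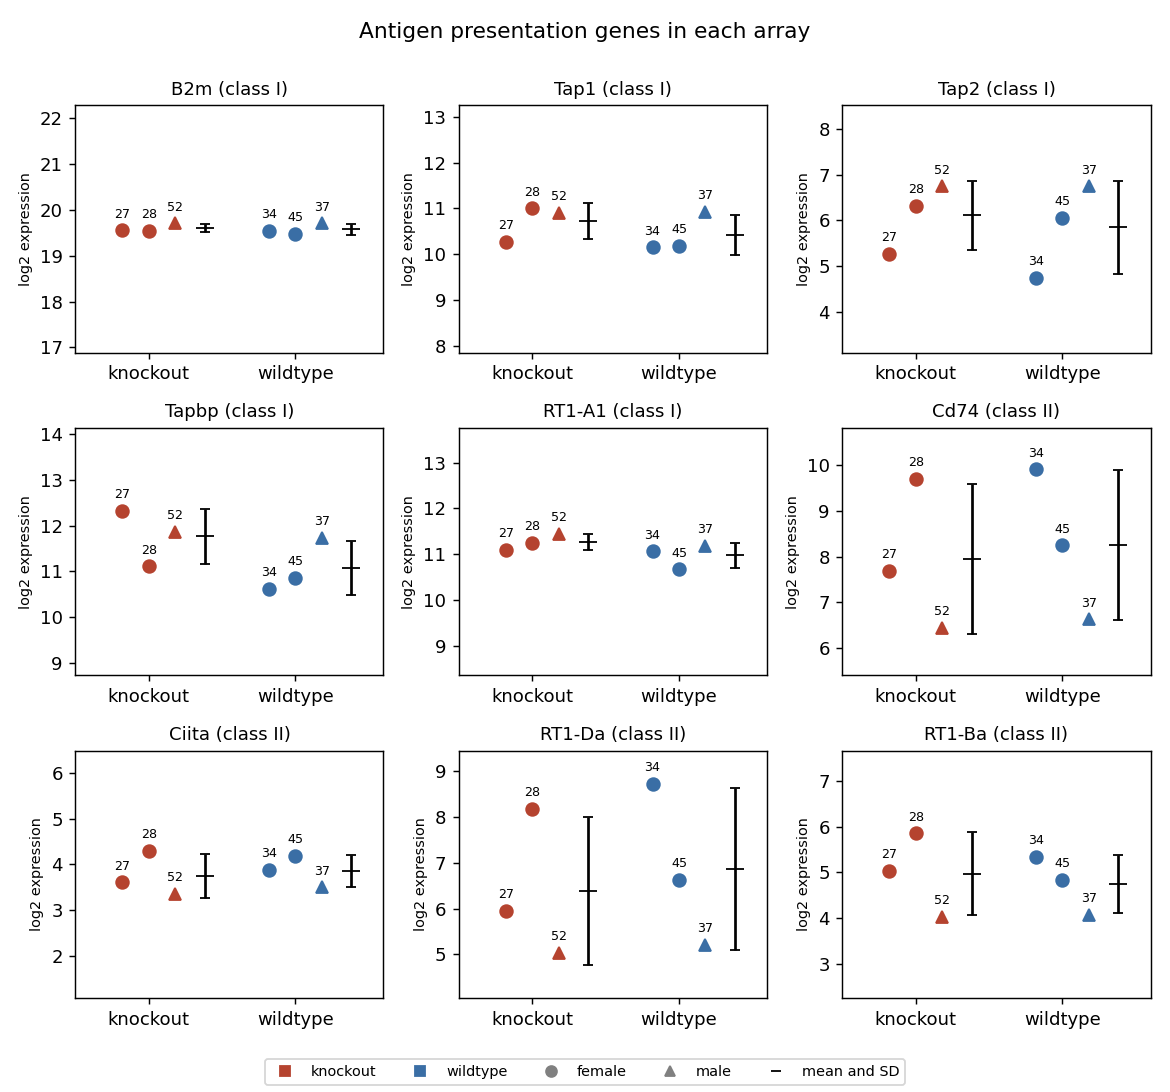
Log2 expression (y axis, each panel spanning the same range) of the 9 genes in the 3 knockout and 3 wildtype arrays, each point an animal with its number, and a bar for the mean and SD of each group (n = 3). Cd74 and RT1-Da run from the male arrays 52 and 37 at the bottom to knockout 28 and wildtype 34 at the top in both genotypes, whereas B2m, Tap1 and RT1-A1 span 0.23 to 0.85.

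Of the class I genes, B2m encodes beta-2-microglobulin, the invariant light chain that every class I molecule needs. Its log2 expression was 19.56, 19.54 and 19.71 in knockout 27, 28 and 52, against 19.54, 19.48 and 19.71 in wildtype 34, 45 and 37. The arrays were within 0.23 of each other, but B2m lay 0.22 below the highest value of the array in each of the 6, so its values followed the arrays' maxima and a difference in B2m could be hidden by the ceiling. The difference was 0.027 (SE 0.30, 95% interval -0.65 to 0.70).

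RT1-A1 encodes a classical class I heavy chain, the polymorphic chain that binds peptide. It read 11.09, 11.25 and 11.44 in knockout 27, 28 and 52, against 11.06, 10.67 and 11.19 in wildtype 34, 45 and 37. The groups overlapped, with a difference of 0.29 (SE 0.32, 95% interval -0.43 to 1.0). The rat carries many closely related class I genes and Sprague-Dawley is an outbred stock, so how far this probeset also reads other heavy chains or misses an allele was not tested.

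Tap1 and Tap2 encode the paired subunits of the transporter that pumps peptides from the cytosol into the endoplasmic reticulum. Tap1 read 10.27, 11 and 10.90 in knockout 27, 28 and 52, against 10.15, 10.18 and 10.93 in wildtype 34, 45 and 37. Knockout 28 and both males were about level and the other 3 lower. Tap1 thus averaged 10.72 ± 0.40 in knockout and 10.42 ± 0.44 in wildtype (SD, n = 3 each), a difference of 0.30 (SE 0.37, 95% interval -0.53 to 1.13). Tap2 read 5.27, 6.32 and 6.74 in knockout 27, 28 and 52, against 4.75, 6.05 and 6.74 in wildtype 34, 45 and 37. It spanned 1.99 over the 6 arrays, the widest of the class I genes, with the males highest and equal. Its difference between genotypes was 0.26 (SE 0.56, 95% interval -0.99 to 1.51). Among arrays of high and of low spike-in signal the difference was 0.92 and -0.73 for Tap2 and 0.83 and -0.34 for Tap1. The high-signal values set knockout 28 against wildtype 34 and 45. The low-signal values set female knockout 27 and male knockout 52 against the male wildtype 37 alone. Between the males the difference was 0 for Tap2 and -0.03 for Tap1. A change of direction with spike-in signal thus cannot be told apart from sex.

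Tapbp encodes tapasin, which bridges the transporter and the empty class I molecule during peptide loading. It read 12.32, 11.11 and 11.86 in knockout 27, 28 and 52, against 10.62, 10.86 and 11.73 in wildtype 34, 45 and 37. Both wildtype females lay below all knockout arrays and wildtype 37 lay among them. Tapbp had the largest difference of the 9 members, 0.69 (SE 0.43, 95% interval -0.28 to 1.66), and did not pass (limma unadjusted p = 0.142, adjusted p = 0.999). It was 0.98 between the females and 0.13 between the males.

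Tap1, Tap2, Tapbp and RT1-A1 were all higher on average in the knockout, where 53.8% of all genes tested were. The difference of 0.027 for B2m equals that of the ceiling-level marker Plvap and is not counted. With B2m, the median difference of the 5 class I genes was 0.29, against 0.037 for all genes. The mean of the 5 genes was 11.70, 11.84 and 12.13 in knockout 27, 28 and 52, against 11.22, 11.45 and 12.06 in wildtype 34, 45 and 37. The female wildtype arrays had the lowest means, and the male arrays of both genotypes were nearly equal. Class I thus averaged 11.89 ± 0.22 in knockout and 11.58 ± 0.43 in wildtype (SD, n = 3 each), a difference of 0.31 that was 0.14 without wildtype 34, 0.20 without knockout 52, 0.56 without wildtype 37, 0.18 with the spike-in split as a block and 0.082 with the keratinocyte median as a covariate. Among arrays of high spike-in signal it was 0.51, and among those of low signal -0.14, where the only arrays of their genotype were knockout 28 and the male wildtype 37.

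Cd74 encodes the invariant chain, which blocks the peptide groove of new class II molecules and escorts them to endosomes. It read 7.69, 9.70 and 6.45 in knockout 27, 28 and 52, against 9.91, 8.25 and 6.63 in wildtype 34, 45 and 37. The top values, knockout 28 and wildtype 34, came from opposite genotypes, as did the bottom values, the male arrays. The highest and lowest arrays were 3.46 apart, an 11-fold range if the scale is log2. Between genotypes Cd74 averaged 7.95 ± 1.64 in knockout and 8.26 ± 1.64 in wildtype (SD, n = 3 each), a difference of -0.32 (SE 0.92, 95% interval -2.37 to 1.74).

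RT1-Da encodes the alpha chain of the class II molecule that corresponds to HLA-DR in humans. It read 5.95, 8.18 and 5.03 in knockout 27, 28 and 52, against 8.73, 6.63 and 5.21 in wildtype 34, 45 and 37. The 6 arrays stood in the same order as for Cd74, from wildtype 34 down to knockout 52, over a range of 3.70 (13.0-fold). The difference between genotypes was -0.47 (SE 0.94, 95% interval -2.59 to 1.65).

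RT1-Ba encodes the alpha chain of the other classical class II molecule, the counterpart of HLA-DQ. It read 5.03, 5.85 and 4.03 in knockout 27, 28 and 52, against 5.34, 4.84 and 4.07 in wildtype 34, 45 and 37. Knockout 28 and wildtype 34 were again the highest and the males the lowest, over a range of 1.82, and both male values lay below the median of the background probesets of their array. The difference was 0.22 (SE 0.51, 95% interval -0.92 to 1.36).

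Ciita encodes the transactivator that class II genes depend on. It read 3.61, 4.29 and 3.36 in knockout 27, 28 and 52, against 3.88, 4.18 and 3.50 in wildtype 34, 45 and 37. These values lay near the filter value of 3.52 and below the median of the background probesets in every array (4.55 to 4.73), so they do not show whether Ciita was expressed. The difference was -0.10 (SE 0.37, 95% interval -0.93 to 0.73).

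The class II mean over the 4 genes was 5.57, 7.0 and 4.72 in knockout 27, 28 and 52, against 6.96, 5.98 and 4.85 in wildtype 34, 45 and 37. Each genotype thus held a high, a middle and a low animal, with averages of 5.76 ± 1.16 in knockout and 5.93 ± 1.06 in wildtype (SD, n = 3 each). The difference of -0.17 was 0.36 without knockout 52, 0.35 without wildtype 34, -0.79 without knockout 28 and -0.71 without wildtype 37, so its direction rested on single animals. It was 0.41 with the spike-in split as a block and 0.68 with the keratinocyte median as a covariate. It was 0.54 among the arrays of high spike-in signal and 0.29 among those of low signal. Of the 4 genes 1 was higher on average in the knockout (RT1-Ba). Among arrays of high and of low spike-in signal the difference was 0.62 and 0.44 for Cd74 and 0.50 and 0.28 for RT1-Da, opposite in sign to that over all 6 arrays. The high-signal values rest on knockout 28 alone for its genotype. The low-signal values set female knockout 27 and male knockout 52 against the male wildtype 37. Between the males alone the difference was -0.18 for both genes, the sign found over all 6 arrays.

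Set side by side, the class II mean without Ciita, which lay at background, spanned 2.82 over the 6 arrays, and the class I mean without B2m, which lay at the ceiling, spanned 1.09. With all measured genes the spans were 2.29 and 0.91. Over single genes, again without Ciita and B2m, the SD across the 6 arrays was 0.71 to 1.54 for class II and 0.26 to 0.81 for class I, with a median of 0.47 for all genes tested. Cd74 and RT1-Da had SDs at the 99.1st and 99.3rd percentiles of all genes tested, and Tap2 and RT1-A1, the class I genes of widest and narrowest spread without B2m, were at the 90.5th and 10.9th. The difference between genotypes in class II minus class I was -0.48, with SDs of 1.29 in knockout and 1.48 in wildtype (n = 3 each). It was 0.16 without knockout 52, 0.21 without wildtype 34, -1.13 without knockout 28 and -1.26 without wildtype 37. It turned to 0.23 with the spike-in split as a block and to 0.60 with the keratinocyte median as a covariate, and was 0.027 among arrays of high and 0.44 among arrays of low spike-in signal.

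The animals also differ by sex, with 2 males and 4 females balanced over the genotypes. In a limma model with genotype beside sex, 0 of the 9 genes passed over all genes, against 0.0261% of the genes tested, and 4 had an unadjusted p under 0.05, against 18.7% of all genes. Cd74 was lower in the males (6.45 and 6.63) than in every female (7.69 to 9.91), by 2.35 on average (male minus female -2.35, SE 0.60, 95% interval -3.71 to -0.99, adjusted p = 0.135). RT1-Da differed by -2.25 (SE 0.69, adjusted p = 0.161). Both males lay below all 4 females for Cd74 and RT1-Da, which were above the background median in all 6 arrays, where 8.26% of all genes tested had both males lowest and 38.3% were lower on average in the males. RT1-Ba and Ciita also read lowest in the males, but the male values of RT1-Ba and all values of Ciita lay below the background median, so the sizes of their differences are not measured.

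The 4 class I genes below the ceiling were higher on average in the males, by 0.52 for Tap1, 1.14 for Tap2, 0.57 for Tapbp and 0.30 for RT1-A1. The difference of 0.18 for B2m equals that of the ceiling-level marker Plvap and is not counted. Tapbp turned to -0.39 with the spike-in split as a block and to -0.047 with the keratinocyte median as a covariate. Tap2 had an unadjusted p of 0.0322 (limma, adjusted p = 0.231) and read higher in both males than in all females, where 23.5% of all genes tested did so. The class means were 12.10 in males and 11.55 ± 0.27 in females for class I, and 4.79 in males and 6.38 ± 0.72 in females for class II (SD, n = 4 females). These means include B2m at the ceiling and the male values of RT1-Ba and Ciita below the background median. The sizes of the differences between them are thus not fully measured. Both males also had low spike-in signal, which only 1 female shared, knockout 27. With the spike-in split as a block the male difference was -1.01 for Cd74 and -0.73 for RT1-Da, and with the keratinocyte median as a covariate -1.15 and -0.78. For sex, both settings were chosen after seeing the data. A term for sex by genotype passed for 0 of 9 genes and for 0 of all genes, with unadjusted p of 0.356 to 0.955 for the members (limma).

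**Figure D3:**
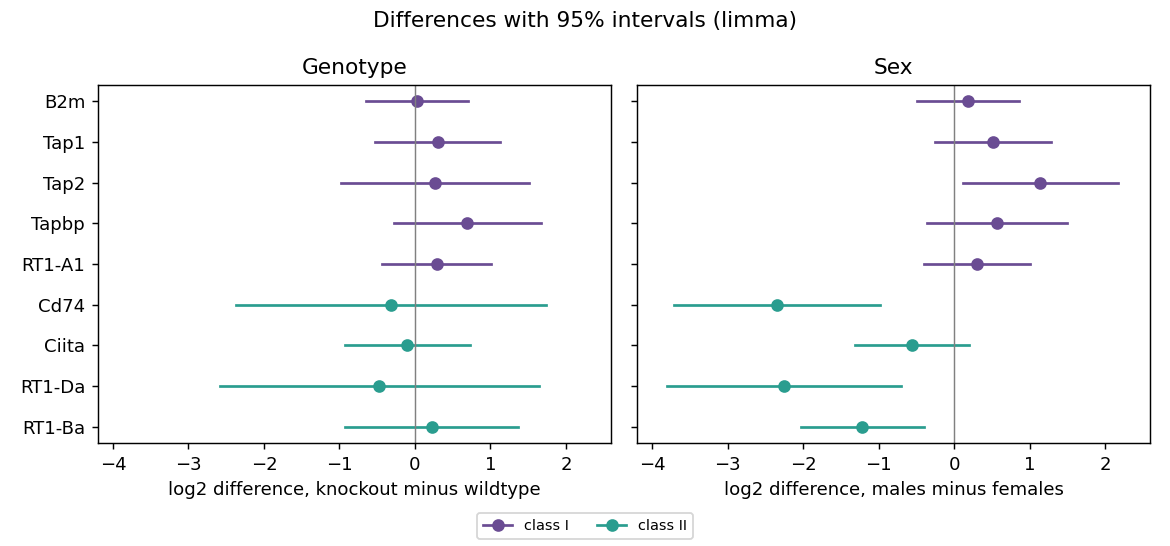
Log2 differences with 95% intervals from limma for the 9 genes, knockout minus wildtype on the left and males minus females on the right (x axes), class I above class II. All genotype intervals include 0, while the sex intervals of Cd74, RT1-Da and RT1-Ba lie below 0 and that of Tap2 above it, and none of these passed adjustment over all genes. B2m lay at the ceiling, and Ciita in all arrays and RT1-Ba in the males lay below the background median.

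Markers of several other skin cells varied between the arrays, some of them in the same animals as the class II genes. The mean of the 5 keratinocyte markers tested was 8.81, 11.98 and 8.51 in knockout 27, 28 and 52, against 14.44, 11.64 and 8.16 in wildtype 34, 45 and 37. As for Cd74 and RT1-Da, wildtype 34 and knockout 28 stood highest and the males lowest. Fibroblast marker means were 8.62, 9.76 and 8.60 in knockout 27, 28 and 52, against 11.54, 9.12 and 8.72 in wildtype 34, 45 and 37, again highest in wildtype 34 and then knockout 28. Pericyte and smooth muscle marker means went otherwise, at 11.25, 10.28 and 11.12 in the knockout, against 10.21, 9.59 and 11.39 in the wildtype.

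The lymphatic endothelial markers, of cells that the Lyve-1 step should deplete, were low in the males, with list means of 5.99 and 7.81, against 8.69 to 9.66 in the females. In 5 of the 6 genes both males lay below all females, against 8.26% of all genes tested. The exception was Lyve1 itself, named after its values were seen. It read 7.27 and 5.04 in males 52 and 37, against 5.86 to 8.22 in the females. Ccl21, a chemokine of lymphatic endothelium, fell in the males by 4.49 on average (limma adjusted p = 0.0322).

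The mean of 7 dendritic and Langerhans cell markers tested, of 8 with a probeset, was 4.73, 5.52 and 4.55 in the knockout, against 5.32, 5.20 and 4.68 in the wildtype, highest in knockout 28 and wildtype 34 and lowest in the males. Langerhans cells of the epidermis and dermal dendritic cells carry class II constitutively. The 3 genes of highest mean in that list did not share a pattern. Ccr7, the receptor that guides dendritic cells to lymph nodes, was lower in both males than in all females (male minus female -1.31, limma adjusted p = 0.165). Zbtb46, a transcription factor of conventional dendritic cells, differed by 0.037 and was lowest in wildtype 45 and 34, and Clec9a, a receptor of cross-presenting dendritic cells, differed by -0.62 and was highest in wildtype 45. Batf3, Cd83 and Epcam are named after their values were seen. Batf3, another dendritic cell transcription factor, differed by 0.0075 and was highest in wildtype 37. Cd83 was lower in both males than in all females (male minus female -0.89, limma adjusted p = 0.218), and Epcam was highest in wildtype 34 and knockout 28. The male values of Ccr7 and Cd83 lay below the background median of their arrays (4.73), so the sizes of their differences are not measured. Of the 7 tested, 5 were lower on average in the males, against 38.3% of all genes, and in 2 both males lay lowest, against 8.26%. Xcr1 of cross-presenting dendritic cells was at or below 2.67 in every array and not tested. The part of all these cells in the class II values was not tested, and in such bulk RNA fewer cells of a type and less RNA per cell cannot be told apart.

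Leukocyte markers varied between animals. The mean of 7 pan-leukocyte markers tested, of 9 with a probeset, was 5.58, 5.68 and 4.84 in knockout 27, 28 and 52, against 6.58, 5.48 and 4.99 in wildtype 34, 45 and 37, highest in wildtype 34 and lowest in the males. Ptprc, which encodes the CD45 used for depletion and is named after its values were seen, read 5.80, 5.28 and 4.59 in the knockout, against 7.72, 5.54 and 3.99 in the wildtype. Lcp1, the marker of highest mean in that list, went the other way, at 10.08 and 10.44 in the males, above all females. Of the 7 tested, both males lay lowest in 4, against 8.26% of all genes tested, and highest in 1, against 23.5%. Macrophage and monocyte markers had 8 of 12 tested, with means of 5.47 to 5.82 in the knockout, against 5.45 to 6.37 in the wildtype. Of the 3 with the highest mean, Lyz2, which encodes a lysozyme of myeloid cells, read 6.65, 9.44 and 7.43 in knockout 27, 28 and 52, against 10.76, 6.85 and 7.17 in wildtype 34, 45 and 37. It was highest in the 2 arrays where class II was highest. Cd68, a lysosomal protein of macrophages, was highest in knockout 27 and wildtype 34 (10.72 and 10.50), and C1qa, a complement subunit, in wildtype 37 (7.20). Csf1r, the receptor of macrophage growth factor and named after its values were seen, was highest in wildtype 34 and knockout 28 (5.17 and 4.33). Its value in knockout 28 lay below the background median of that array (4.65). Cd14, also named after its values were seen, was highest in the males (6.17 and 6.47). Of the 8 tested, both males lay lowest in 2, against 8.26% of all genes tested, and highest in 1, against 23.5%. The defining genes Adgre1, Cd163, Itgam and Aif1 were below the filter value on average. Of the B cell markers 2 of 4 were tested, with means of 3.62 to 4.44 in the knockout, against 3.96 to 4.8 in the wildtype, and of the T cell markers 6 of 8, with means of 3.55 to 4.47 and 3.70 to 4.28. Cd79b and Cd3g were among those left out as dim. The blood endothelial marker mean, by contrast, spanned 15.05 to 15.55 in all.

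**Figure D4:**
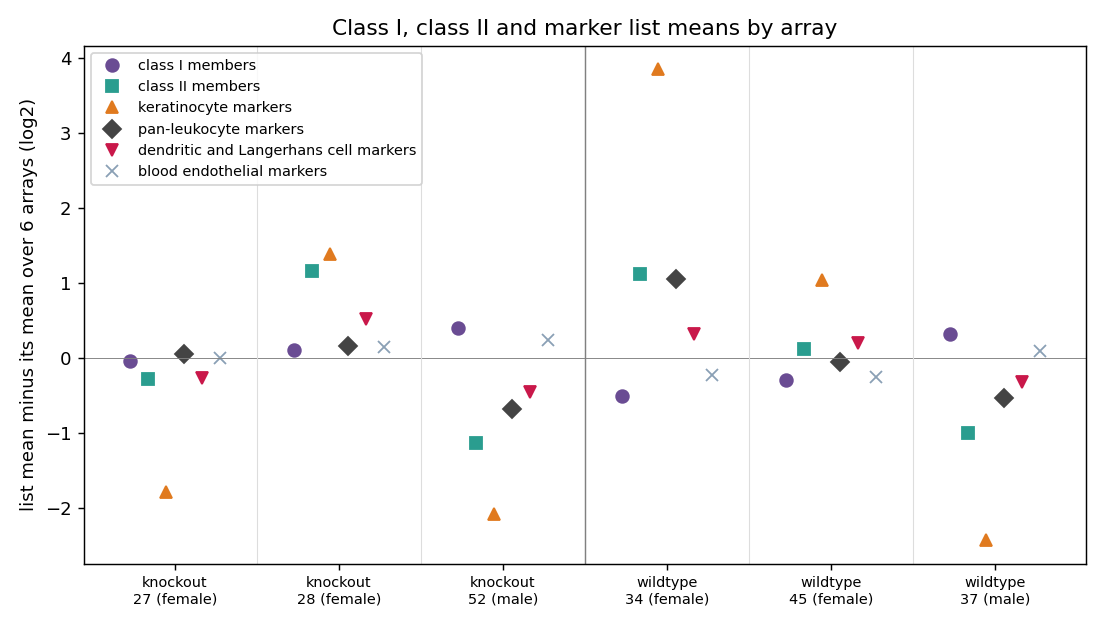
Mean log2 expression of each gene list in the 6 arrays after subtracting the list's own mean over the arrays (y axis), with the knockout arrays on the left and the wildtype arrays on the right. The class II mean (green squares) is 1.16 above its average in knockout 28 and 1.12 in wildtype 34 and 1.13 and 0.996 below it in males 52 and 37, and the keratinocyte markers (orange triangles) are 1.39 and 3.85 above and 2.08 and 2.43 below in the same arrays.

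Genes whose profile over the 6 arrays lay nearest to each class mean were found by the root mean square distance between centred log2 values. For the class II mean, the 5 nearest of 5057 genes compared were Dsg3, Sdr16c5, Plek2, Or2y1i and Svip, at distances of 0.218 to 0.255. Dsg3, a desmosomal cadherin of epidermis that is also in the keratinocyte list, read 5.51, 7.12 and 5.18 in knockout 27, 28 and 52, against 6.87, 6.17 and 4.66 in wildtype 34, 45 and 37. For the class I mean, the 5 nearest of 11162 genes were Nup35, Ptpn12, Bcl3, Atf6 and Pip4k2b, at distances of 0.0668 to 0.0755. These 6 points share the spike-in split and the differences in marker signal, and the distances are a description.

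Other genes of the class I pathway did not pass either. Of 12 tested genes for peptide supply and loading, 8 were higher and 4 lower on average in the knockout, with a median difference of 0.10 and 0 called. Tapbpl, which encodes the tapasin-related peptide editor TAPBPR, read 6.75, 7.34 and 6.30 in knockout 27, 28 and 52, against 5.46, 5.70 and 6.17 in wildtype 34, 45 and 37. All knockout arrays were above all wildtype arrays, by 1.02 on average, and it did not pass (limma unadjusted p = 0.0236, adjusted p = 0.999). It was the 1 gene of the 12 whose groups did not overlap, against 6.25% of all genes tested. Of the members with the highest signal, Calr, the chaperone calreticulin, differed by -0.22, Psme1, a subunit of the proteasome activator that interferon-gamma induces, by 0.57, and Hspa5, the chaperone BiP, by 0.72.

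Among further class I and class I-like genes, 17 of 20 with a probeset were tested, and 13 were higher and 4 lower on average in the knockout, with a median of 0.21 and 0 called. RT1-CE3 and RT1-CE15, heavy chains of the class I cluster, differed by 0.34 and 0.087. Procr, the endothelial receptor of protein C with a class I-like fold, read 14.12, 13.06 and 14.89 in the knockout, against 10.31, 13.33 and 14.50 in the wildtype. It was lowest in wildtype 34, and its difference was 1.31 (limma unadjusted p = 0.189, adjusted p = 0.999). Of these 17 genes 16 were higher on average in the males, and in 8 both males lay above all females, against 23.5% of all genes tested. None was called for sex, with 7 at an unadjusted p under 0.05 (limma), against 18.7% of all genes.

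Of further class II genes and their loading machinery, 14 of 16 were tested, and 7 were higher and 7 lower in the knockout, with a median of 0.005 and 0 called. The lysosomal proteases Ctsb, Ctsd and Ctsl, which cut antigens and the invariant chain, had the highest signal in that list and differed by 0.28, -0.043 and 0.48. They were not lower in the males as the class II genes were, since both males lay above all females for Ctsb, Ctsd and Ctsl. RT1-Db1, the beta-chain partner of RT1-Da, read 3.67, 4.93 and 3.43 in knockout 27, 28 and 52, against 4.04, 4.11 and 3.06 in wildtype 34, 45 and 37. It lay above the background median in knockout 28 alone. Of the 14 genes 9 were lower on average in the males, with both males lowest in 4 (RT1-Db1, RT1-DMb, RT1-DOa and RT1-DOb, against 8.26% of all genes) and both highest in 4 (the 3 cathepsins and Lgmn, against 23.5%), and 0 were called for sex. The male values of those 4 low genes all lay at or below background, as did 1 to 3 of the 4 female values, so no size is given. RT1-Bb, the beta-chain partner of RT1-Ba, and RT1-DMa, the partner of RT1-DMb, overlapped between the sexes. Ifi30 was lower in all knockout arrays (7.98, 7.74 and 8.09) than in all wildtype arrays (8.27, 8.44 and 8.48). Its difference was -0.46, and it did not pass (limma adjusted p = 0.999). It was the 1 gene of the 14 whose groups did not overlap, against 6.25% of all genes tested. RT1-Db1, RT1-DMb, RT1-DOa, RT1-DOb, RT1-Bb, RT1-DMa, Lgmn and Ifi30 are named after their values were seen.

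Regulators of both classes and interferon-gamma signalling gave 0 calls as well. Of 9 enhanceosome and regulatory genes, 5 were higher and 4 lower in the knockout, with Creb1, Prdm1 and Ezh2 differing by -0.20, 0.52 and 0.27. Of 11 genes of interferon-gamma signalling tested, 8 were higher and 3 lower, with a median of 0.29. The cytokine gene Ifng itself, named after its values were seen, was dim, at 2.71 to 2.86 in the knockout, against 2.75 to 4.41 in the wildtype, highest in wildtype 34. Stat3 was higher in all knockout arrays (14.25, 14.71 and 14.45) than in all wildtype arrays (13.57, 13.43 and 14.15), by 0.75, and did not pass (limma adjusted p = 0.999). It was the 1 gene of the 11 whose groups did not overlap, against 6.25% of all genes tested. The kinase gene Jak1 differed by -0.21 and Socs3, a feedback inhibitor, by 0.29.

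Costimulatory and T cell ligands had 6 of 9 genes tested and 0 called, with 4 higher and 2 lower in the knockout. Cd80 and Cd86, the costimulatory ligands of professional antigen-presenting cells, had dim signal and are named after their values were seen. Cd80 read 3.33 to 3.65 in the knockout arrays, against 3.60 to 3.94 in the wildtype arrays, and Cd86, at 3.34 to 3.85 against 3.15 to 3.52, was not tested. Cd274, which encodes the inhibitory ligand PD-L1, read 13.58, 13.08 and 14.30 in knockout 27, 28 and 52, against 11.09, 11.88 and 14.09 in wildtype 34, 45 and 37. Its difference was 1.30, with 1.84 between the females and 0.21 between the males, and it did not pass (limma adjusted p = 0.999). Icam1, an adhesion ligand of T cells, differed by 1.16, and Cd48, a ligand of lymphocyte receptors, by -0.063.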

How the data were processed

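RNA of each animal was biotinylated for Affymetrix arrays by the WT Plus procedure, per the labels. The deposited table was read as log2 expression for each probeset. RMA and Affymetrix Expression Console are the tools in the submitters' processing notes, and neither versions nor the log base could be found in the sources. No further normalisation was applied.

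Of 24834 probesets listed, 1646 were controls, and 15049 have 1 gene symbol, 0 several and 8139 none in the platform annotation. They give 15037 genes (the probeset of highest mean where a symbol had several). A gene was tested if its mean reached the 25th percentile over probesets (3.52), and 3522 did not. Genotype was tested two-sided with limma 3.58.1 (R 4.3.3, lmFit and eBayes) on all 6 arrays, with Benjamini-Hochberg adjustment over 11515 genes at 0.05, and sex with genotype in the model. Precision is limited by 3 arrays per group, with a median SE of 0.387 for a difference. Class means have no test.

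Members, gene lists, tests and alternatives were chosen with earlier results of these data known. Named are all members and, of each pathway list, the 3 genes of highest mean and those whose groups did not overlap with a difference of at least 0.5. Of marker lists, genes of highest mean or below the filter are named where a result touches them. Genes named outside this rule are said to be named after their values were seen. Alternatives were the filter, the probeset, sex, spike-in and keratinocyte terms and leaving out each array. The fit was tested on simulated data with each gene's own spread, where it called 2.6% of log2 differences of 1, 47.6% of 2 and 91.6% of 4. Many genes were changed together in each simulated run, which loosens the adjusted threshold, whereas Il33 alone was called in the real data. Genes were also drawn independently, without the shared spike-in and marker differences. These shares are therefore likely too high for the real data.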

Additional observations from a re-analysis of the deposited data

How the results depend on the processing

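No member passed the test of genotype or of sex under any alternative run, with 0 of 242 values at an adjusted p under 0.05 and the lowest at 0.0553 (limma, Cd74 between sexes). The number of genes called for genotype, 1 as reported (Il33), was 0 without the filter on dim genes, with the filter at the 50th percentile (which left no value for Ciita), in females only and with each probeset on its own, and 0 to 1 on leaving out an array (1 without wildtype 34, 0 without any other). The differences of 6 members turned round, those of Cd74 (-0.32 as reported) and RT1-Da (-0.47) by the most, and the cause was not tested. With the spike-in signal as a block they were -0.023 for B2m, 0.53 for Cd74, 0.12 for Ciita and 0.39 for RT1-Da. With the keratinocyte median as a covariate they were -0.029 for B2m, -0.23 for Tap2, 0.96 for Cd74, 0.11 for Ciita and 0.89 for RT1-Da. On leaving out each array in turn the difference ran from -0.027 to 0.093 for B2m, -0.29 to 0.71 for Tap2, -1.19 to 0.51 for Cd74, -0.37 to 0.097 for Ciita, -1.37 to 0.47 for RT1-Da and -0.22 to 0.69 for RT1-Ba. Tap1, Tapbp and RT1-A1 kept their sign in these settings but not their size, at 0.17 (without knockout 28) to 0.56 (without wildtype 37) for Tap1, 0.41 (without knockout 27) to 1.02 (without wildtype 37) for Tapbp and 0.14 (without wildtype 45) to 0.40 (without wildtype 37) for RT1-A1, and the keratinocyte covariate took Tapbp to 0.25 and Tap1 to 0.16. Between males and females Tapbp was -0.39 with the spike-in block and -0.047 with the keratinocyte covariate. Under the keratinocyte covariate the class means differed by other amounts, with class II at 0.68, class I at 0.082 and class II minus class I at 0.60. No paired analysis was possible because the groups share no replicate numbers.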
